A study of Mus musculus with 3 samples.

Results

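Id proteins are helix-loop-helix proteins that lack a DNA-binding region. They pair with E proteins and keep them from the E-box sites they would bind, and their genes are classical targets of the receptors for TGF-beta and bone morphogenetic proteins. TGF-beta binds the type II receptor Tgfbr2, which activates the type I receptor Tgfbr1, the kinase that phosphorylates Smad2 and Smad3. Smad7 is the inhibitory Smad that is induced by the pathway and acts on the receptor, and Tgif1 is a homeodomain corepressor that binds Smad complexes in the nucleus. In the aorta the pathway is best known from the heritable aneurysms that follow mutations in its receptors, ligands and Smads.

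The 8 genes described are *Id1*, *Id2*, *Id3*, *Tgfbr1*, *Tgfbr2*, *Smad3*, *Smad7* and *Tgif1*, taken by symbol from the 32285 genes counted. All 8 were found. They were picked with earlier results of these same cells in view, mainly the comparison of macrophages between genotypes, so their own differences between genotypes in macrophages are given as a description, with no test. No threshold entered the choice.

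Transcripts were counted in leukocytes sorted from the digested aortas of 10 mice in 1 pooled CITE-seq run, a method that reads transcripts and DNA-tagged antibodies in the same cell. The mice were 5 *Jak2WT* mice (mice 1 to 5) and 5 *Jak2V617F Myel* mice, of which mice 6, 8 and 10 had aortic dilation and mice 7 and 9 had an aortic aneurysm. In the mutant mice LysM-Cre, which is active mainly in myeloid cells, switches on the V617F form of *Jak2*. The strain was C57BL/6, no mouse was treated, all received an intravenous antibody to CD45.2 shortly before death so that circulating leukocytes could be left out of the sort, and their ages are not given in the sources used here. The sort was set so that each genotype gave about equal numbers of cells, and 4871 cells were kept here, of which 1780 were *Jak2WT* and 3091 were *Jak2V617F Myel*. Each mouse gave 112 to 811 cells, with a median of 5442 to 10775 unique molecular identifiers (UMIs, each counting 1 captured molecule) per cell. Classes of cells were rebuilt by clustering without the 8 genes and named from marker lists, so each class name stands for cells like that class. A difference from the classes of the study can come from the rebuilt names.

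The macrophages fell into resident macrophages (653 cells), IEG+ macrophages (479 cells, led by immediate-early genes such as *Egr1* and *Jun* and by the ligand gene *Bmp2*), *Ccr2*+ inflammatory macrophages (475 cells) and smaller classes. Resident macrophages joined a Res-MGL1hi cluster of 408 cells, led by *Retnla*, *Aqp1*, *Tppp3* and *Fcna*, and a Res-*Txnip* hi cluster of 245 cells, led by *Ddit4* and *Txnip*. No cluster was named for the study's Res-S100hi macrophages. The Res-MGL1hi cluster scored highest of all clusters for their markers (1.36, beside 1.85 for its own), so its values below may not be those of Res-MGL1hi cells alone. With cells assigned to mice by MULTIseqDemux, a separate Res-S100hi cluster of 172 cells was led by *Aqp1* and *Tppp3*. A level below is the UMIs of a gene per 1000000 UMIs (CPM) of a class in 1 mouse, given for mice with at least 10 cells of the class. Levels of a class are over all its mice with enough cells. For NK cells and IFNIC (macrophages led by interferon-induced genes) these were 2 mutant mice and no *Jak2WT* mouse. For *Ccr2*+ inflammatory macrophages, cDC1, mast cells, gamma delta T cells, the *Rag1*+ T cell cluster and proliferating cells they were 1 *Jak2WT* and 3 mutant mice, and for neutrophils and Saa3+ myeloid cells 1 *Jak2WT* and 2 mutant mice. Levels of different genes are not compared with each other. Because classes were formed from the same cells, differences in level between classes are given without a test.

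*Id2* and *Id3* had different distributions over the leukocytes of the aorta. *Id2*, the Id gene that innate lymphoid cells and cDC1 need to develop, had its highest mean levels in NK cells (694 CPM, 630 and 759 in 2 mice), mast cells (688 ± 53.9 CPM, SD, n = 4 mice), *Ccr2*+ inflammatory macrophages (604 ± 30.2 CPM, n = 4), cDC1 (604 ± 104 CPM, n = 4) and ILC2 (582 ± 108 CPM, n = 9). These 5 classes overlapped in their mice and could not be ordered. Next came IEG+ macrophages at 349 ± 226 CPM (n = 10), Saa3+ myeloid cells at 349 ± 130 CPM (n = 3) and gamma delta T cells at 276 ± 107 CPM (n = 4). Resident macrophages stood at the low end for *Id2*, with a mean of 64.5 ± 38.4 CPM (n = 10), beside B cells at 58.6 ± 47.3 CPM (n = 9).

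*Id3* was highest in Saa3+ myeloid cells, a *Prg4*-expressing and *Alox15*-expressing cluster like serosal macrophages, where the 3 mice with enough cells had 576, 843 and 1190 CPM. A T cell cluster led by *Rag1* and *Ccr9*, genes of immature T cells, came second in mean level, with 79.1, 190, 336 and 993 CPM in 4 mice. The ranges of both classes overlapped. *Ccr2*+ inflammatory macrophages (127 ± 44.6 CPM, n = 4), IEG+ macrophages (107 ± 74.2 CPM, n = 10) and the Res-MGL1hi cluster (96.0 ± 68.3 CPM, n = 8) did not differ from each other beyond their spread. In the Res-*Txnip* hi cluster *Id3* lay at 5.37 ± 7.00 CPM (n = 10), and the 15 UMIs found there came from 245 cells of 10 mice.

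In 4 of the 5 classes highest in *Id2*, *Id3* was near the bottom of its own order. In the mice with at least 10 cells of the class, NK cells held 1 UMI of *Id3*, mast cells 1, cDC1 4 and ILC2 8. *Id1*, which binds the same E proteins, had its highest mean in neutrophils, with 28.2, 60.3 and 109 CPM in 3 mice, the lowest of them from 2 UMIs. Proliferating cells came next, with 0 to 42.1 CPM in 4 mice, and the ranges of both classes overlapped. The other classes had a mean of at most 8.61 CPM, while 7 UMIs of *Id1* were found in all resident macrophages together. Of these, mouse 8 had 3 UMIs, mice 4, 6, 9 and 10 had 1 each, and the other 5 mice had 0, which allows up to 3.56 to 9.88 CPM at their depth (3 UMIs per mouse).

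**Figure D1:**
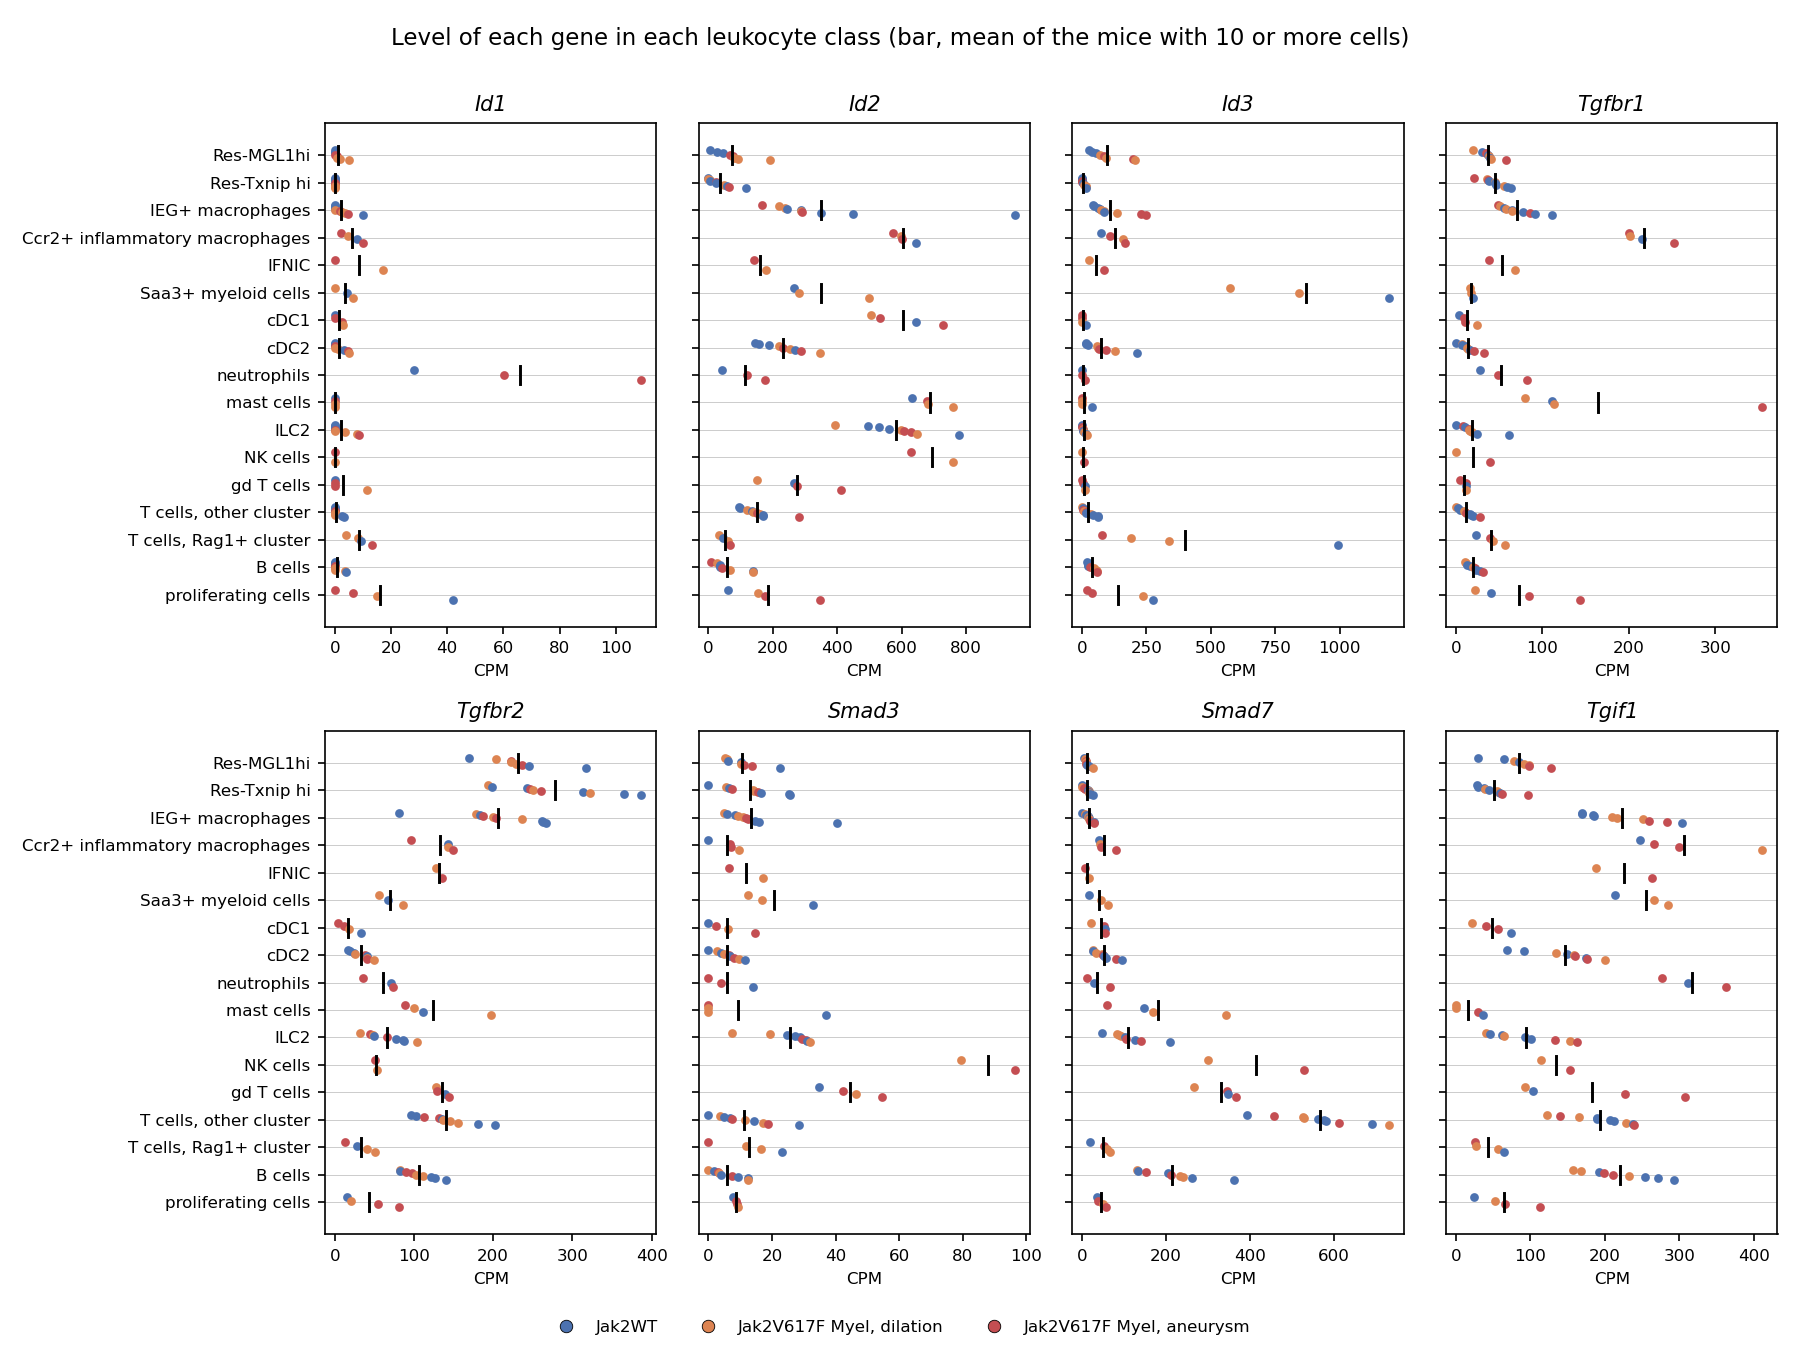
Level of each of the 8 genes in CPM (linear axes that differ between panels) in 17 leukocyte classes, 1 point per mouse with at least 10 cells of the class, colored by group, with the mean as a bar. *Id2* and *Id3* have their highest means in different classes, *Tgfbr1* in *Ccr2*+ inflammatory macrophages (overlapping with mast cells) and *Tgfbr2* in resident macrophages, and *Smad7* in T cells outside the *Rag1*+ cluster.

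Both receptor genes also differed in where they were highest. *Tgfbr2*, the ligand-binding receptor, had its highest means in the Res-*Txnip* hi cluster (278 ± 66.1 CPM, n = 10), the Res-MGL1hi cluster (231 ± 42 CPM, n = 8) and IEG+ macrophages (206 ± 56.1 CPM, n = 10), whose ranges overlapped. *Ccr2*+ inflammatory macrophages had 133 ± 24.6 CPM of *Tgfbr2* (n = 4), below the lowest mouse of either resident cluster. *Tgfbr1*, the signaling kinase, ran the other way. It had 200, 201, 215 and 252 CPM in the *Ccr2*+ inflammatory macrophages of 4 mice, against 23.4 to 72.7 CPM in the resident macrophages of 10 mice and 49.1 to 111 CPM in IEG+ macrophages, with no overlap. Mast cells had a mean of 165 ± 127 CPM of *Tgfbr1* from 23 UMIs, which overlapped with the inflammatory macrophages.

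*Smad7* was highest in T cells. It had 565 ± 99.5 CPM in T cells outside the *Rag1*+ cluster (n = 10), with every mouse between 393 and 729 CPM, followed by NK cells (300 and 528 CPM), gamma delta T cells (331 ± 43.8 CPM, n = 4), B cells (214 ± 73.3 CPM, n = 9), mast cells (180 ± 118 CPM, n = 4) and ILC2 (110 ± 45.6 CPM, n = 9). It lay at 12 ± 6.85 CPM in resident macrophages, at 15.4 ± 8.65 CPM in IEG+ macrophages (both n = 10) and at 48.7 ± 20.9 CPM in the *Rag1*+ T cell cluster (n = 4), so that all 10 mice had less *Smad7* in resident macrophages than in T cells. *Smad3* was low throughout, with its highest levels in NK cells (79.4 and 96.4 CPM) and gamma delta T cells (44.5 ± 8.29 CPM, n = 4), and lay at 12.1 ± 6.09 CPM in resident macrophages, beside 11.3 ± 8.56 CPM in T cells outside the *Rag1*+ cluster (both n = 10) and 5.97 ± 4.56 CPM in B cells (n = 9). *Tgif1* had its highest means in neutrophils (277, 311 and 362 CPM) and *Ccr2*+ inflammatory macrophages (306 ± 73.3 CPM, n = 4). These overlapped with each other and with classes such as Saa3+ myeloid cells (213 to 285 CPM), IEG+ macrophages (170 to 304 CPM) and B cells (157 to 293 CPM). *Tgif1* was at 69.7 ± 27.1 CPM in resident macrophages against 223 ± 48.3 CPM in IEG+ macrophages (both n = 10).

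For *Id3* and *Smad7*, differences between classes were also seen in the share of cells with at least 1 UMI after every cell was thinned to 2000 UMIs, with cells below that depth left out. *Id3* was found in 10.8% of Res-MGL1hi cells (44 of 407, exact 95% interval 7.97% to 14.2%) and in 1.63% of Res-*Txnip* hi cells (4 of 245, 0.447% to 4.13%). ILC2, which had little *Id3*, gave 0.858% (2 of 233, 0.104% to 3.07%), and its interval overlapped with that of Res-*Txnip* hi cells. The unthinned shares were 27.2%, 3.27% and 3.35%, at median depths of 12004, 8693 and 5854 UMIs. *Smad7* was found in 58.8% of T cells outside the *Rag1*+ cluster and in 3.07% of resident macrophages. For *Tgfbr1* the highest share was in mast cells (43.8%, 29.5% to 58.8%), not in *Ccr2*+ inflammatory macrophages (32.5%, 28.3% to 36.9%), with overlapping intervals. Such intervals and floors cover counting error only.

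Transcripts of resident macrophages, used as a gauge of free RNA, were low in T cells but higher in B cells, where their source was not tested. The resident macrophage transcripts *Lyve1*, *Pf4*, *F13a1* and *Mrc1* reached 0.504% to 1.60% of their resident macrophage level in T cells outside the *Rag1*+ cluster, but 6.22% to 9.54% in B cells.

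Over the 17 classes with at least 2 mice, the genes whose mean log2(CPM + 1) followed each gene most closely are given as a description, since the points share 1 run and differ in depth. For *Id2* they were *Rgs1* (Pearson's r = 0.832), *Nr4a2* and *Tnfaip3* (0.763 and 0.758). For *Id3* they were *1700021F05Rik*, *Slc35e3* and *Knop1* (0.819, 0.818 and 0.816). For *Tgfbr2* they were *Maf* (0.821), the corepressor gene *Ski* (0.816) and *Cnrip1* (0.803), and for *Tgfbr1* *Nt5dc2*, *Vps35* and *Cd63* (0.839, 0.826 and 0.819). *Smad7* was followed by *Entpd6*, *Crem* and *Stat4* (0.884, 0.875 and 0.873), *Tgif1* by *Cxcr4*, *Tspan14* and *AB124611* (0.853, 0.847 and 0.842), *Smad3* by *Trim46*, *Cast* and *Bspry* (0.865, 0.831 and 0.818), and *Id1* by *Fosl1*, *Mcam* and *Slc7a11* (0.905, 0.863 and 0.853).

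In resident macrophages *Id3* and *Tgif1* were the genes of the 8 with the clearest difference between genotypes. *Id3* (ENSMUSG00000007872, chr4:136143497-136145755, + strand, GRCm38) had 11.1, 39.7, 6.59, 12.1 and 27.7 CPM in *Jak2WT* mice 1 to 5. In the *Jak2V617F Myel* mice it had 169, 53.4 and 72.3 CPM in the dilation mice 6, 8 and 10, and 165 and 72.6 CPM in the aneurysm mice 7 and 9. Every mutant mouse was above every *Jak2WT* mouse. The values rest on 2 to 18 UMIs in *Jak2WT* mice and 41 to 139 UMIs in mutant mice. The means were 107 ± 55.9 and 19.5 ± 13.9 CPM (SD, n = 5 each), a log2 fold change of 2.33 ± 0.41 (SE) in edgeR's fit of the sums per mouse. *Tgif1* (ENSMUSG00000047407, chr17:70844205-70853546, − strand) had 53.6, 56.1, 32.9, 48.5 and 46.2 CPM in *Jak2WT* mice 1 to 5. It had 90.7, 69.1 and 82.2 CPM in mice 6, 8 and 10, and 98.6 and 119 CPM in mice 7 and 9. The groups again did not overlap in level, and the log2 fold change was 0.97 ± 0.18. The share of cells with *Tgif1* after thinning did overlap, at 5.56% to 13.5% in *Jak2WT* mice and 10.8% to 18% in mutant mice.

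*Id2* (ENSMUSG00000020644, chr12:25093799-25097140, − strand) had 81.4, 35.1, 52.7, 20.2 and 24.7 CPM in *Jak2WT* mice 1 to 5. It had 155, 71.7 and 70.9 CPM in the dilation mice and 59.4 and 73.3 CPM in the aneurysm mice. The groups overlapped through *Jak2WT* mouse 1, and the log2 fold change was 0.97 ± 0.32. The share of cells with *Id2* after thinning overlapped as well, at 5.26% to 10.3% in *Jak2WT* mice and 6.15% to 12.9% in mutant mice. *Id2* was not called in the main fit. It was called with no filter on low counts, and was 1.41 and called without *Jak2WT* mouse 1, from which nothing is read. Both receptor genes overlapped between the genotypes. *Tgfbr2* (ENSMUSG00000032440, chr9:116084293-116175360, − strand) ranged from 189 to 334 CPM in *Jak2WT* mice and from 220 to 239 CPM in mutant mice, with a log2 fold change of -0.21 ± 0.14 and an approximate 95% interval of -0.48 to 0.05. *Tgfbr1* (ENSMUSG00000007613, chr4:47353222-47414931, + strand) ranged from 32.7 to 72.7 CPM and from 23.4 to 52.6 CPM, with a log2 fold change of -0.18 ± 0.23 and an interval of -0.64 to 0.27.

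*Id1*, *Smad3* and *Smad7* did not pass the filter on low counts in resident macrophages. *Smad3* had 14.6 ± 7.79 CPM in *Jak2WT* mice and 9.71 ± 2.83 CPM in mutant mice, and *Smad7* had 12 ± 7.78 and 12.1 ± 6.72 CPM, with overlapping groups for both. Of the 5 genes that passed, 2 (*Id3* and *Tgif1*) were called higher at an adjusted p under 0.05 and none was called lower, where 2.28% of the 6613 genes tested were called higher and 2.92% were called in either direction. Because the 8 genes were chosen from this comparison, nothing is read from that count.

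**Figure D2:**
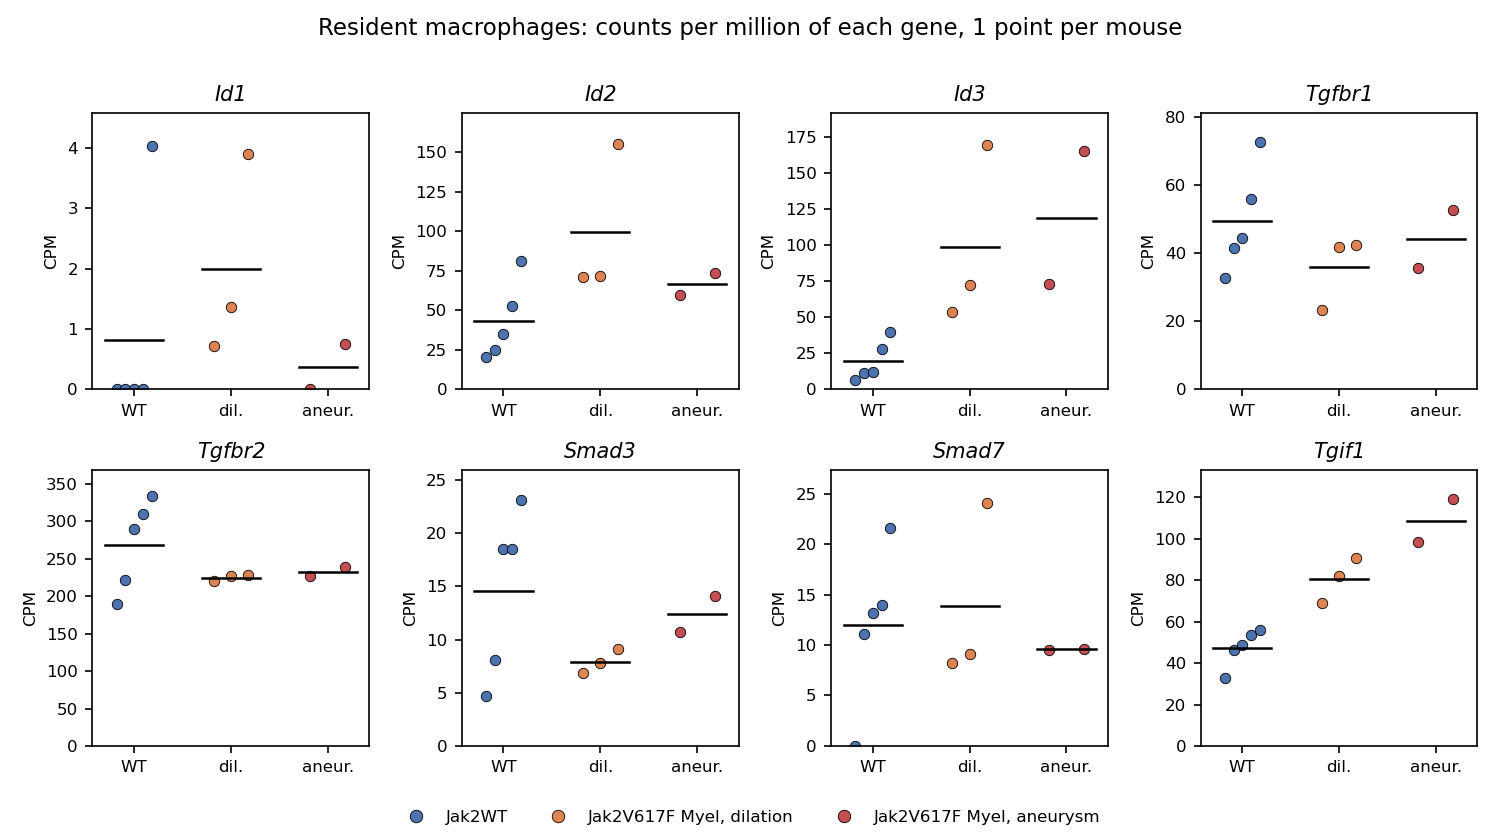
Level of each of the 8 genes in resident macrophages in CPM (axes from 0, differing between panels), 1 point per mouse, with the group mean as a bar. The *Jak2WT* and mutant mice do not overlap for *Id3* and *Tgif1* and do overlap for the other 6 genes.

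The makeup of the resident macrophages differed between the genotypes in the same mice. Res-MGL1hi cells were 37.5% ± 19.3 of resident macrophages in *Jak2WT* mice (28.8%, 69.2%, 19.4%, 29.2% and 40.8% in mice 1 to 5) and 75.3% ± 5.49 in mutant mice (69.1% to 83.8%). The sums rest on 24 to 123 cells and 247474 to 1410992 UMIs per mouse. Within the Res-MGL1hi cluster *Id3* had 28.3, 52.4 and 40.2 CPM in *Jak2WT* mice 1, 2 and 5, the only ones with 10 such cells. It had 206, 67.7 and 92.4 CPM in the dilation mice and 196 and 84.6 CPM in the aneurysm mice. The groups did not overlap there either, and the log2 fold change was 1.62 ± 0.43, which was not called in that smaller fit. The thinned share of cells with *Id3* did overlap in this cluster. It was 6.67% to 9.68% in *Jak2WT* mice, 6.38% to 9.41% in the dilation mice, and 20.8% and 14% in the aneurysm mice. Mouse 6, with the highest level, had a share of 8.51%. Over all resident macrophages the thinned share did not overlap, at 0% to 5.26% in *Jak2WT* mice and 6.15% to 15.6% in mutant mice. In the Res-*Txnip* hi cluster *Id3* lay between 0 and 17.1 CPM in mice of both genotypes and did not pass the filter.

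*Tgif1* had a log2 fold change of 0.86 ± 0.26 within the Res-MGL1hi cluster and 0.48 ± 0.29 within the Res-*Txnip* hi cluster, neither of them called, and its groups overlapped in both. *Id2* in the Res-MGL1hi cluster had 5.65, 46.2 and 26.8 CPM in the 3 *Jak2WT* mice and 66.4 to 192 CPM in the 5 mutant mice, without overlap, at a log2 fold change of 1.76 ± 0.47 that was not called. Its thinned share of cells there overlapped, at 0% to 14.8% in *Jak2WT* mice and 6.25% to 17% in mutant mice. In the Res-*Txnip* hi cluster *Id2* ran from 0 to 118 CPM in *Jak2WT* mice and from 0 to 62.6 CPM in mutant mice. What part of the differences in resident macrophages came with the share of Res-MGL1hi cells was not tested beyond these values, and in sums over a class fewer cells of a kind and less RNA per cell cannot be told apart.

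**Figure D3:**
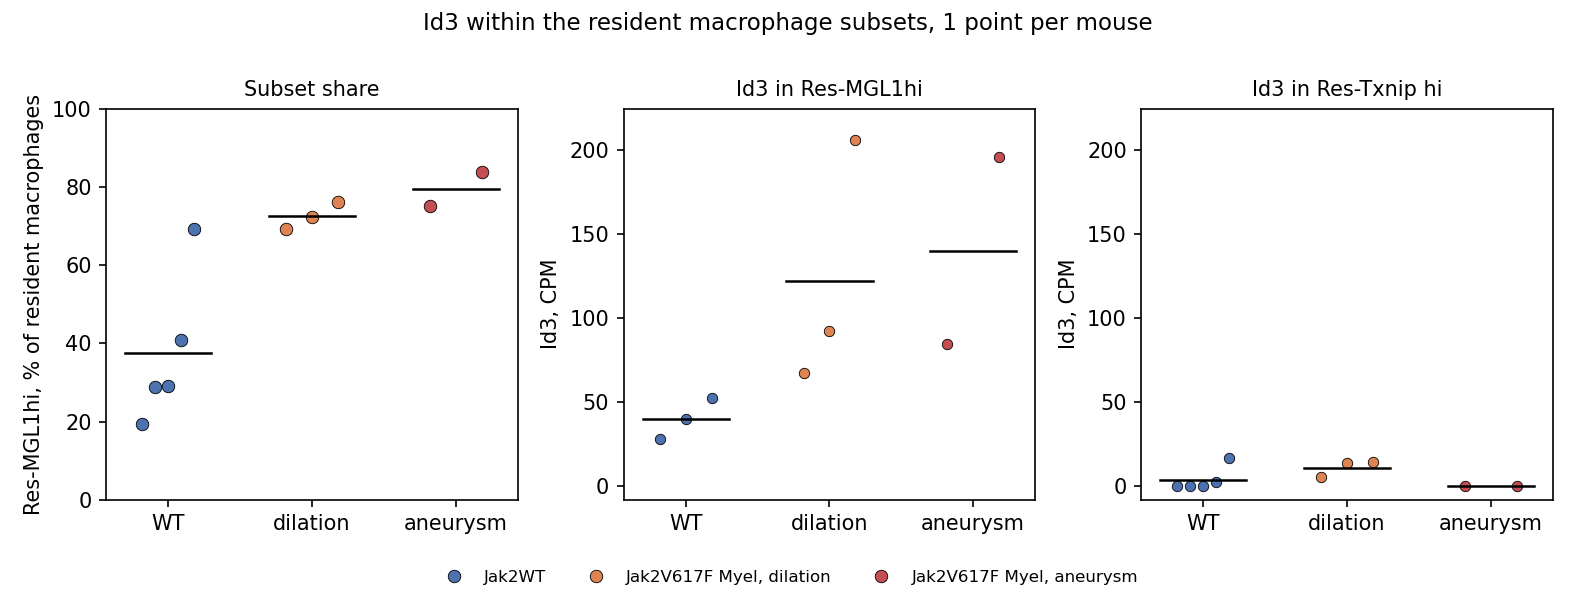
Left, Res-MGL1hi cells as a percent of resident macrophages. Middle and right, *Id3* in CPM within the Res-MGL1hi and the Res-*Txnip* hi cluster, 1 point per mouse with at least 10 cells, with the group mean as a bar. *Id3* is at 28.3 to 52.4 CPM in *Jak2WT* and 67.7 to 206 CPM in mutant Res-MGL1hi cells, and at 17.1 CPM or less in Res-*Txnip* hi cells.

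Immediate-early and heat-shock genes, which rise when tissue is digested, also moved with genotype in these cells. The summed level of 10 such genes, all of them detected, ran from 14100 to 26000 CPM in resident macrophages of *Jak2WT* mice (median 17600) and from 25900 to 28600 CPM in mutant mice (median 26900). Within the Res-MGL1hi cluster it was 22800 to 30300 CPM and 28100 to 32700 CPM. Within the Res-*Txnip* hi cluster it was 10700 to 16500 CPM and 11100 to 16600 CPM. The ranges of the genotypes overlapped in all resident macrophages and in each cluster. Markers of stromal cells were near 0 in resident macrophages of both genotypes. The 5 endothelial markers summed to 4.62 to 16.5 CPM and 5.18 to 14.3 CPM, with *Cdh5* and *Cldn5* at 0, the 5 fibroblast markers to 16.2 to 39.5 CPM and 15.6 to 41.2 CPM, with *Pdgfra* at 0 in *Jak2WT* mice, and the 4 smooth muscle markers to at most 8.08 CPM, with *Myh11* and *Cnn1* at 0. The 47 fibroblasts of the run, which were kept out of all classes above, held *Id3* in 75% of the 36 cells deep enough for thinning. With 52 of the 653 resident macrophages removed for a stromal UMI, the log2 fold change of *Id3* was 2.25. The part of the immediate-early genes in the result was not tested.

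Of 54 other genes of TGF-beta and bone morphogenetic protein signaling, 27 passed the filter in resident macrophages, 4 were called higher in mutant mice and none was called lower, where 2.28% of all genes tested were called higher. Their median log2 fold change was 0.15, against -0.01 over all genes tested. The pathway lists were chosen with earlier results of these data known, so nothing is read from that count or median. Among the ligands, *Gdf15*, a stress-induced member of the family, was higher (log2 fold change 1.87 ± 0.28, edgeR adjusted p = 0.000875), with 32.3 to 153 CPM in *Jak2WT* mice and 213 to 541 CPM in mutant mice. *Tgfb1* (0.38 ± 0.13, adjusted p = 0.139) and *Bmp2* (-0.37 ± 0.31, adjusted p = 0.669) did not pass the test.

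The other calls were 2 of the 6 inhibitors and corepressors tested and 1 of the 3 targets tested. *Skil*, which encodes the Smad corepressor SnoN, was higher by 0.93 ± 0.16 (adjusted p = 0.00408), at 119 to 162 CPM in *Jak2WT* mice and 205 to 369 CPM in mutant mice. *Smurf2*, a ubiquitin ligase that Smad7 brings to the receptor, was higher by 0.70 ± 0.18 (adjusted p = 0.0405), and *Klf10*, an early TGF-beta target, by 0.93 ± 0.25 (adjusted p = 0.0497). For *Gdf15*, *Skil*, *Smurf2* and *Klf10* alike, every mutant mouse was above every *Jak2WT* mouse. *Pmepa1*, another inhibitor that TGF-beta induces, had a log2 fold change of -0.51 ± 0.17 (adjusted p = 0.122). None of 3 genes of latency and activation, 5 other receptors, 4 other Smads and 3 genes of Id4 and the E proteins was called. Within the Res-MGL1hi cluster alone none of the 4 was called (adjusted p = 0.0558 for *Gdf15*, 0.104 for *Skil*, 0.393 for *Smurf2* and 0.38 for *Klf10*), and *Smurf2* and *Klf10* also lost their call with the mitochondrial limit of 5% (adjusted p = 0.08 and 0.0868). With each mouse left out in turn, *Klf10* lost its call in 8 of 10 fits and *Smurf2* in 7 of 10, while *Gdf15* and *Skil* kept theirs in all 10. Over the other alternatives *Klf10* lost its call in 9 of 11, *Smurf2* in 7 of 11 and *Skil* in 4 of 12. For *Skil* these were the 8 genes kept for clustering, IEG+ macrophages added, and each resident cluster alone. *Gdf15* was not called in either resident cluster alone.

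In IEG+ macrophages the fold changes of *Id3* and *Id2* had opposite signs, and neither was called in the main fit. *Id3* had 48.0, 62.7, 70.8, 40.5 and 83.7 CPM in *Jak2WT* mice 1 to 5, and 134, 83.5 and 72.4 CPM in the dilation mice and 229 and 250 CPM in the aneurysm mice. Mice 8 and 10 lay within the *Jak2WT* range, and the log2 fold change was 1.18 ± 0.32. *Id2* had 288, 243, 450, 952 and 351 CPM in *Jak2WT* mice 1 to 5, 219, 288 and 239 CPM in the dilation mice and 166 and 291 CPM in the aneurysm mice. The groups overlapped, and the log2 fold change was -0.85 ± 0.27. The highest value came from *Jak2WT* mouse 4, which had 11 IEG+ cells, and without that mouse the log2 fold change was -0.50. With MULTIseqDemux, another way to assign cells to mice, it was -0.18. The thinned share of cells with *Id2* overlapped too, at 22.6% to 27.3% in *Jak2WT* mice and 17.1% to 38.5% in mutant mice. *Id3* was called with the 8 genes kept for clustering, with no filter on low counts and in a fit of 3 groups. *Id2* was called with no filter only. Because the 8 genes were chosen from such comparisons, nothing is read from these calls.

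*Tgif1* (0.30 ± 0.16), *Tgfbr1* (-0.33 ± 0.21) and *Tgfbr2* (-0.20 ± 0.19) showed smaller differences in IEG+ macrophages, and *Id1*, *Smad3* and *Smad7* did not pass the filter. None of the 5 genes tested was called, where 0.0415% of the 4825 genes tested were called. None of the 20 pathway genes tested was called, and *Bmp2*, one of the genes that lead this class, had 351 ± 130 CPM in *Jak2WT* mice and 144 ± 105 CPM in mutant mice. In these cells the immediate-early and heat-shock genes ran from 45500 to 55900 CPM in *Jak2WT* mice and from 34800 to 48700 CPM in mutant mice, the reverse of their direction in resident macrophages.

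The genotype effects of both classes were set side by side in 1 fit with the mouse as a block, added after the values were seen. Because the 8 genes were chosen from these effects, their differences are given as a description, with no test. In that fit 0.898% of the 6126 genes tested were called, 1 of the 8 genes (*Id2*) among them, from which nothing is read. The genotype effect in IEG+ minus that in resident macrophages was -1.63 ± 0.36 on the log2 scale for *Id2*, -1.08 ± 0.43 for *Id3* and -0.60 ± 0.21 for *Tgif1*. For *Id2* it was -1.05 with MULTIseqDemux and -0.86 with the 8 genes kept among the clustering genes, and -2.17 to -1.33 with each mouse left out in turn. Of the pathway genes, *Skil* was called in that fit, at -0.885 ± 0.185 (edgeR adjusted p = 0.0107). Its log2 fold change in IEG+ macrophages was -0.026 ± 0.127. The pathway lists were chosen with earlier results known, so nothing is read from this call.

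The aneurysm mice were compared with the dilation mice in resident macrophages to ask whether the 8 genes followed the severity of the aortic disease, with 2 and 3 mice and a spread shared with the *Jak2WT* mice. No gene of the 8 passed the test among the 7 that passed the filter, and 0.0131% of the 7609 genes tested were called. *Tgif1* came nearest, higher by 0.43 ± 0.19 in aneurysm (edgeR adjusted p = 0.999), and both aneurysm mice (98.6 and 119 CPM) were above the 3 dilation mice (69.1 to 90.7 CPM). In CPM *Id3* split each group, with dilation mouse 6 and aneurysm mouse 7 at 169 and 165 CPM and the other 3 at 53.4 to 72.6 CPM. Its log2 fold change was 0.26 ± 0.41 (edgeR adjusted p = 0.999, approximate 95% interval -0.54 to 1.06). Its thinned share of cells did not split them, at 15.6% and 11.7% in the aneurysm mice and 6.15% to 8.06% in the dilation mice. In IEG+ macrophages the aneurysm mice (229 and 250 CPM) were also above the dilation mice (72.4 to 134 CPM). In the Res-*Txnip* hi cluster the dilation mice had 5.68 to 14.3 CPM from 8 UMIs together. The aneurysm mice had 0 UMIs of *Id3* among 325455 UMIs there, too few to order the groups. These differences in *Id3* were not tested.

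Outside macrophages, the genotype difference of the 8 genes was tested in B cells, cDC2 and T cells, for the 5 genes that passed the filter in each. ILC2, with 9 mice, were not tested. In B cells *Id3*, which restrains E2A in these cells, had 23.5, 20.5, 24.7 and 21.4 CPM in *Jak2WT* mice 1, 2, 3 and 5. It had 56.1, 55.7 and 46.4 CPM in the dilation mice and 59.1 and 30.2 CPM in the aneurysm mice, so the groups did not overlap. The log2 fold change was 1.17 ± 0.23, and the adjusted p over 3621 genes was 0.40 in edgeR's fit (0.000221 before adjustment), so it did not pass the threshold. The values rest on 4 to 45 UMIs per mouse. *Lyve1*, *Pf4*, *F13a1* and *Mrc1*, transcripts of resident macrophages, summed to 719 to 846 CPM in B cells of *Jak2WT* mice and 254 to 2630 CPM in those of mutant mice. With the mitochondrial limit of 5%, 34 B cells with a median of 16734.5 UMIs formed their own cluster, with *Spp1* among its leading genes. The source of the macrophage transcripts in B cells, and their part in the *Id3* values, was not tested. In B cells no gene was called (0% of the genes tested), by edgeR or DESeq2, and 152 genes had an unadjusted p under 0.05. *Tgif1* (-0.38 ± 0.17), *Smad7* (-0.31 ± 0.27), *Tgfbr2* (-0.27 ± 0.19) and *Id2* (-0.31 ± 0.52) had adjusted p-values of 0.994 to 0.999.

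In cDC2, where 0.0236% of 4233 genes were called, none of the 5 genes tested passed. *Id2* had the lowest p-value of the 5, with 146, 187, 268 and 157 CPM in *Jak2WT* mice 1, 2, 4 and 5 and 218 to 348 CPM in mutant mice (log2 fold change 0.47 ± 0.19, edgeR adjusted p = 0.539). *Id3* was decided by 1 mouse. It had 23.0, 17.0 and 17.1 CPM in *Jak2WT* mice 1, 2 and 4 but 215 CPM in mouse 5, and 57.8 to 129 CPM in mutant mice, so that the log2 fold change was 0.13 ± 0.61 with mouse 5 and 2.08 without it (adjusted p = 0.131). Mouse 5 held 77 of the 207 Saa3+ myeloid cells, the class with the most *Id3*. The 4 markers of that class, all detected, summed to 17.0 to 19.2 CPM in the cDC2 of the 4 *Jak2WT* mice and to 21.5 to 499 CPM in those of mutant mice. The part of Saa3+ cells in the *Id3* value of mouse 5 was not tested.

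In T cells no gene was called by edgeR (0% of 3813 genes, with 381 at an unadjusted p under 0.05), and DESeq2 called 3. *Tgif1* (-0.61 ± 0.26, edgeR adjusted p = 0.448), *Smad7* (-0.46 ± 0.22, adjusted p = 0.524), *Tgfbr2* (-0.48 ± 0.25, adjusted p = 0.571), *Id3* (-0.73 ± 0.70, adjusted p = 0.852) and *Id2* (-0.08 ± 0.29, adjusted p = 0.995) did not pass the test. The *Rag1*+ cluster, present with at least 10 cells in mice 3, 6, 9 and 10 only, had more *Id3* and less *Smad7* than the other T cells. In the sums over all T cells *Id3* was at 218, 210, 20.6 and 78.2 CPM in these 4 mice and at 2.60 to 62.6 CPM in the other 6. Without this cluster, a setting added after the values were seen, *Id3* in T cells was at most 62.6 CPM in every mouse.

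**Figure D4:**
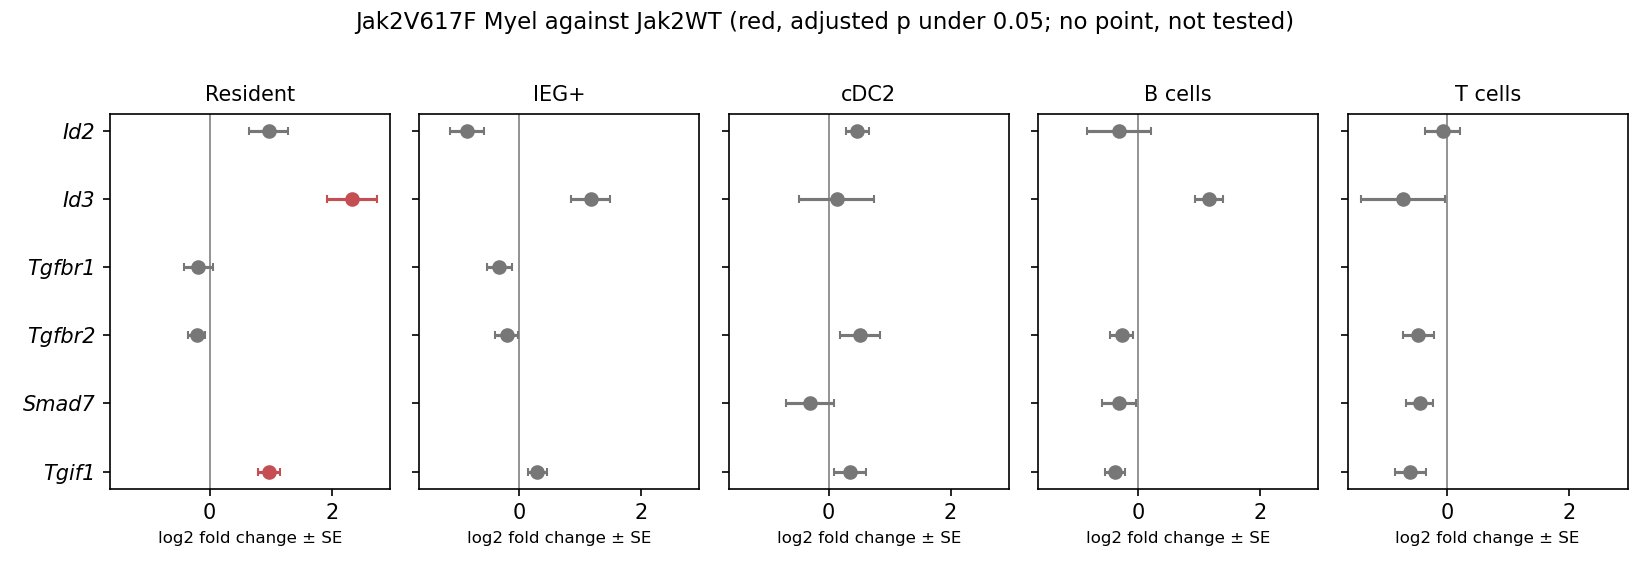
Log2 fold change of *Jak2V617F Myel* against *Jak2WT* mice with its SE from edgeR's fits in 5 classes, in red where the adjusted p was under 0.05 and with no point where the gene did not pass the filter. *Id3* is above 0 by more than its SE in resident macrophages, IEG+ macrophages and B cells, and *Id2* is above 0 in resident and below 0 in IEG+ macrophages. In macrophages the values describe genes chosen from that comparison.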

How the data were processed

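CITE-seq of aortic leukocytes was analysed from 1 deposited table of counts: whole UMI counts per cell barcode and feature, which the authors made with Cell Ranger 6.0.2 on mm10 (GRCm38), for 8471 barcodes, 32285 genes, 75 antibodies and 10 hashtags. The submitters' processing notes name Seurat 3.0.0. The values are not normalized. Gene positions come from GENCODE vM21, on the same assembly.

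Barcodes were assigned to mice by HTODemux in Seurat 5.3.0 (R 4.3.3) at a positive quantile of 0.99, and the 26.7% with more than 1 hashtag and the 4.12% with none were left out, as were cells over 10% mitochondrial UMIs. No other doublet caller was run. Cells were clustered on 2000 variable genes, from which the 8 genes were removed, and 20 principal components, at resolution 0.3 and, for macrophages, 0.8. Macrophage clusters with low RNA were removed. UMIs were summed per mouse and class (at least 10 cells), and genes with too few UMIs for edgeR's filterByExpr were dropped. TMM factors and edgeR 4.0.16's quasi-likelihood test (two-sided, Benjamini-Hochberg adjustment over all genes tested, threshold 0.05) gave the fold changes and p-values. The SE was taken from the fold change and its F statistic, and approximate intervals take 1.96 SE on each side. A total of 247474 to 1410992 UMIs per mouse lay behind the values in resident macrophages. The fit was also run on simulated counts that had 1 spread for all genes. Nothing is read from that run for the 8 genes, since their own spread can differ.

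The 8 genes, the lists of pathway genes and markers and the tests were chosen with earlier results of these data known. Named are the 8 genes, the pathway genes that passed the threshold and, for each of the 8, the 3 genes with the nearest pattern over classes among genes of at least 10 CPM in 1 class. The pathway genes named without a call, and keeping the *Rag1*+ T cell cluster apart, were chosen after their values were seen. Alternatives were MULTIseqDemux, a mitochondrial limit of 5%, the 8 genes kept for clustering, RLE scaling, DESeq2 1.42.0, no filter on low counts, cells with stromal UMIs removed, other groupings of mice and subsets, and each mouse left out in turn. The fit of resident and IEG+ macrophages together, and T cells without the *Rag1*+ cluster, were added after the data were seen. Antibody counts were not used here.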

Additional observations from a re-analysis of the deposited data

Results flagged for a closer look

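In 80 groups of 4 or 5 mice, 11 had 1 mouse far from the others. The rule takes about 1 in 20 as the chance rate, which need not hold for sparse counts. A lone UMI in a group otherwise at 0 is always flagged, so nothing is read from the number of flags. *Id2* in resident macrophages was 155 CPM in mutant mouse 6, against 59.4 to 73.3 CPM in the other mutant mice. *Smad7* in resident macrophages was 24.1 CPM in mutant mouse 10, against 8.25 to 9.63 CPM. *Tgif1* in IEG+ macrophages was 304 CPM in *Jak2WT* mouse 4, which had 11 such cells, against 170 to 185 CPM. *Id3* in cDC2 was 215 CPM in *Jak2WT* mouse 5, against 17.0 to 23.0 CPM. *Id2* in B cells was 137 CPM in the same mouse, against 35.2 to 36.9 CPM. *Id3* in T cells was 218 CPM in *Jak2WT* mouse 3, the only *Jak2WT* mouse with 10 or more *Rag1*+ cluster cells, against 2.60 to 62.6 CPM. The other 5 were *Id1* values of 1 UMI in a group otherwise at 0: 4.04 CPM in resident and 10.1 CPM in IEG+ macrophages of *Jak2WT* mouse 4, 3.40 CPM in cDC2 of mouse 2, and 3.92 and 3.48 CPM in B cells of mice 1 and 8.

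The genotype effect on *Id2* in IEG+ minus that in resident macrophages was -1.63 on the log2 scale. It passed the threshold in the fit of both classes, added after the values were seen, but not with MULTIseqDemux, the mitochondrial limit of 5% or the 8 genes kept for clustering, nor without mouse 5 or mouse 6. Because *Id2* was chosen from these effects, this is a description and not an independent test.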

How the results depend on the processing

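In resident macrophages *Id3* and *Tgif1* kept their direction in every alternative that tested them. *Id3* was called in each but the Res-MGL1hi cluster alone (1.62), and *Tgif1* in each but that cluster (0.86), the Res-*Txnip* hi cluster alone (0.48), dilation mice only (0.78) and IEG+ macrophages added (0.40). Because both genes were chosen from this comparison, these calls describe how the values depend on the processing and are not a test. With each mouse left out they ran from 2.10 to 2.69 and from 0.84 to 1.05. The 193 genes called between genotypes became 81 with the 8 genes kept for clustering, 441 with no filter on low counts, 42 with IEG+ macrophages added, 25 in Res-MGL1hi alone, 1 in Res-*Txnip* hi alone, 32 with dilation mice only, and 79 to 268 with a mouse left out (79 without mouse 1, 120 without mouse 3, 80 without mouse 9). Genes called between aneurysm and dilation (1) became 0 with the 8 genes kept, 48 with no filter, 13 with mutant mice only and 0 to 2 with a mouse left out (0 without mouse 7, 2 without mouse 8). In IEG+ macrophages (2) they became 9 with MULTIseqDemux, 13 with the 8 genes kept, 8 with DESeq2, 87 with no filter, 5 with 3 groups and 2 to 6 with a mouse left out (6 without mouse 5, 5 without mouse 6). In cDC2 (1) they became 0 with MULTIseqDemux, 2 with the mitochondrial limit of 5%, 2 with the 8 genes kept, 20 with DESeq2, 78 with no filter and 1 to 15 with a mouse left out (15 without mouse 1, 5 without mouse 5, 2 without mouse 8 or 9). In B cells (0) they became 32 with no filter, and 0 with any mouse left out. In T cells (0) they became 1 with MULTIseqDemux, 3 with DESeq2, 25 with no filter and 0 to 2 with a mouse left out (2 without mouse 8). The 55 genes whose effect differed between resident and IEG+ macrophages became 112 with no filter and 41 to 93 with a mouse left out (93 without mouse 2). The causes were not tested.

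Signs turned for *Gdf15*, which was called, and otherwise for values that were not called. *Id2* between aneurysm and dilation became 0.10 with the 8 genes kept, and *Id3* -0.029 with stromal cells removed. *Id3* in cDC2 became -0.31 with MULTIseqDemux, -0.62 with the mitochondrial limit of 5% and -0.52 with the 8 genes kept. *Id2* became 0.005 in B cells with that limit, 0.076 in T cells with MULTIseqDemux, 0.26 in T cells without the *Rag1*+ cluster, and -0.51 in resident macrophages with IEG+ macrophages added. In resident macrophages *Tgfbr1* became 0.23 in Res-MGL1hi alone, and *Gdf15* -0.43 in Res-*Txnip* hi alone. *Tgfbr2* became -0.18 in the difference between both classes with the 8 genes kept.

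No paired analysis between genotypes was possible because each mouse has 1 genotype and the hashtag numbers pair no mice. With each mouse left out, signs also turned for *Id2* in B cells (-0.67 to 0.73) and T cells (-0.33 to 0.061), *Id3* in cDC2 (-0.21 to 2.08), T cells (-1.43 to 0.46) and between aneurysm and dilation (-0.42 to 0.85), *Smad7* in cDC2 (-0.60 to 0.11), *Tgfbr1* between aneurysm and dilation (-0.059 to 0.51), and *Tgfbr1* (-0.28 to 0.002) and *Tgfbr2* (-0.069 to 0.26) in the difference between classes.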
